A study of Rattus norvegicus with 6 samples.

Results

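The oligosaccharyltransferase of rat beta cells was followed through the messenger RNA of 9 of its subunits, Ddost, Dad1, Rpn1, Rpn2, Ost4, Stt3a, Stt3b, Ostc and Krtcap2. A probe set, the group of short probes that measures a transcript, was taken for a subunit when the platform annotation gave it that gene symbol alone. All 9 genes were found, with 12 probe sets of the 31042 measured, and the brightest probe set stood for its gene, here and for all 14217 genes with a symbol. The cells came from male Wistar rats, 10 weeks old, that had fasted for 24 h or had been fed ad libitum. The beta cells had been sorted by fluorescence (FACS) and snap frozen without culture, and RNA of all isolates was extracted in 1 batch. There were 3 fasted and 3 fed isolates, each from a separate pool of 5 rats and each hybridized on 1 array, so a pool and not a single animal is the unit of replication. The values are linear intensities computed by the authors with dChip.

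The oligosaccharyltransferase sits in the membrane of the endoplasmic reticulum (ER) beside the Sec61 channel and moves a preassembled sugar chain from the lipid dolichol to asparagines of newly made proteins. Human and canine cells hold separate forms of the complex. The STT3A form acts on the chain as it enters the ER, and the STT3B form modifies sites that were passed over, with the help of the oxidoreductases MAGT1 or TUSC3. Beta cells send large amounts of secretory and membrane protein through this step, although insulin itself carries no N-linked sugar.

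Every one of the 9 subunits had a lower mean intensity in beta cells of fasted than of fed rats, and 8 of the 9 had no overlap between the groups. By the thresholds of the study, 1.5-fold and p under 0.05 (here the unadjusted p from limma), 6 subunits were lower (Ddost, Dad1, Rpn2, Stt3a, Ostc and Krtcap2), 0 were higher and 3 did not pass (Rpn1, Stt3b and Ost4). Over all 14217 genes 9.51% were lower and 2.29% higher by this rule, and in 21.2% every fasted array lay below every fed array. A negative log2 ratio of fasted over fed was found for 9440 of the 14217 genes. With dChip the study reported a much smaller share of transcripts changed at the same cutoffs, so its counts and these are not comparable. The median log2 ratio of fasted over fed was -0.62 for the 9 subunits and -0.19 for all genes. The unadjusted p from limma was under 0.05 for all 9 subunits, and for 2634 of all 14217 genes in either direction. After Benjamini-Hochberg adjustment over all probe sets 0 of 31042 passed 0.05 in limma (0% of those tested) and in a comparison of linear means with unequal variances, against 4622 at an unadjusted p under 0.05 in limma. The adjusted p of the 9 subunits lay between 0.155 and 0.334. Other limma fits passed some of them after adjustment, namely Ddost and Dad1 when a pseudocount replaced the floor on low values, these 2 and Rpn2 with robust variance or with dim probe sets left out, and all 9 with array weights, whose estimation stopped before convergence. The study had placed Ddost and Dad1 in a cluster of its markers in which it reported falls with fasting. Their fall here is thus not independent evidence.

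**Figure D1:**
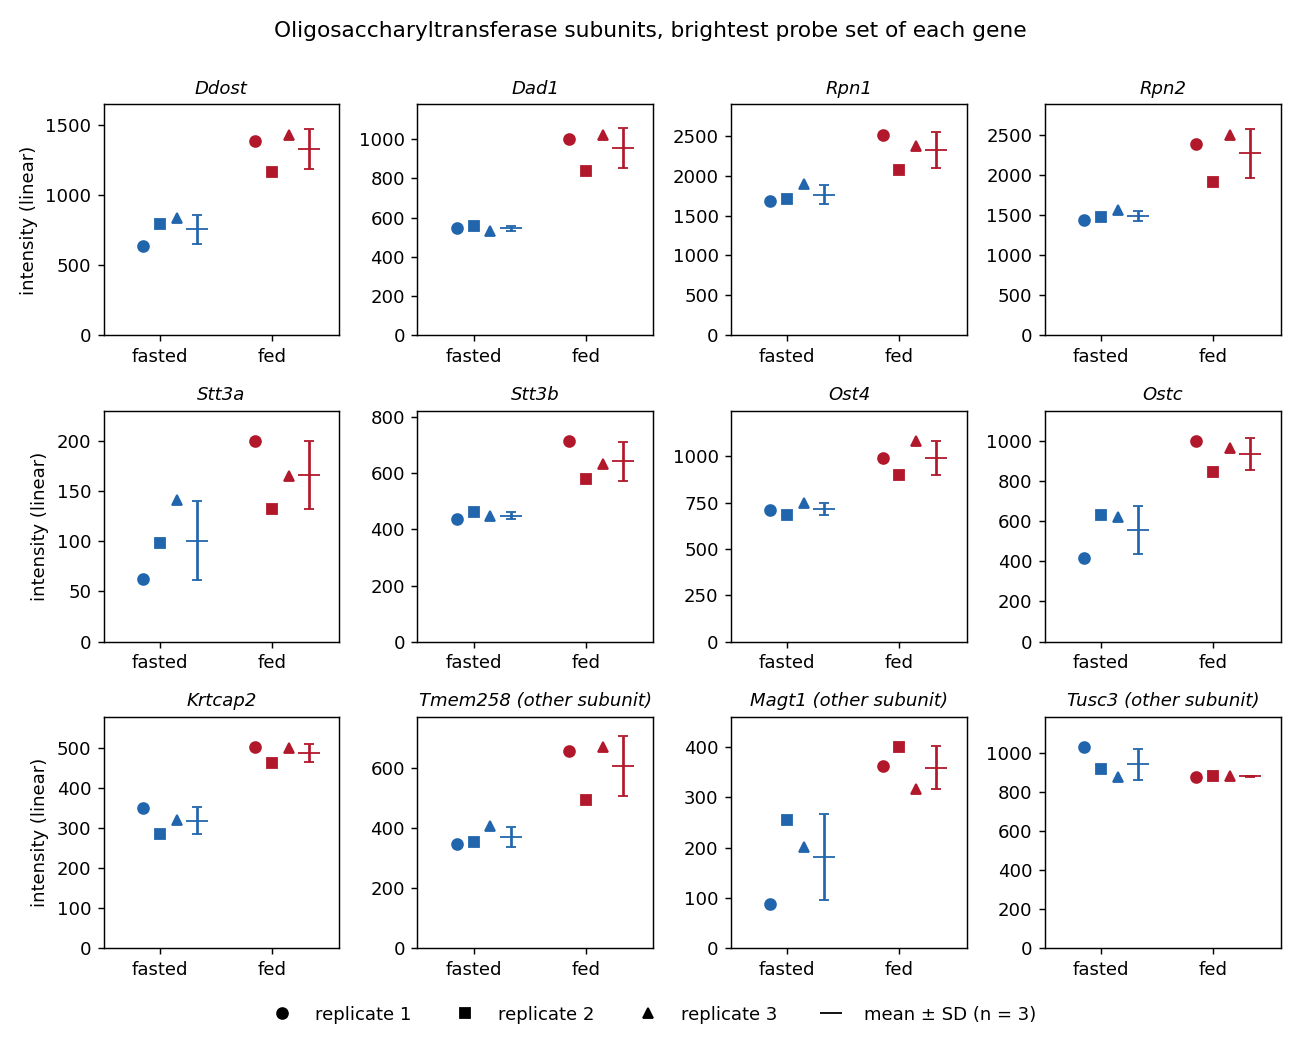
Linear intensity (vertical axis, from 0) of the 9 subunits and 3 further subunits on the 3 fasted (blue) and 3 fed (red) arrays; symbols mark the replicates and bars the mean ± SD. Fasted points lie below all fed points in every panel except those of Stt3a, where fasted replicate 3 (141) lies above fed replicate 2 (132), and Tusc3.

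Ddost and Dad1, noncatalytic subunits that both forms of the complex share, showed the largest falls among the shared subunits. Ddost (probe set 1372247_at), also known as OST48, measured 639.9, 793 and 835 in fasted isolates and 1383, 1168 and 1432 in fed isolates. All fasted values were lower than every fed value, and the means were 756 ± 103 in fasted and 1328 ± 140.4 in fed isolates (SD, n = 3 each), a log2 ratio of -0.82 (standard error 0.13, adjusted p = 0.167 from limma). Dad1 (probe set 1367465_at), short for defender against cell death, measured 549, 558 and 533 in fasted isolates and 1000.1, 839 and 1024 in fed isolates. The fasted isolates were tightly grouped, with a mean of 547 ± 12.3 against 954 ± 101 in fed isolates (SD, n = 3 each), and Dad1 was 1.74-fold lower (log2 ratio -0.80, standard error 0.10, adjusted p = 0.155 from limma).

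The ribophorins Rpn1 and Rpn2, large shared subunits first described as proteins that hold ribosomes at the ER membrane, had the brightest probe sets and smaller falls. Rpn2 (probe set 1398776_at) measured 1439, 1475 and 1560 in fasted isolates and 2388, 1920.2 and 2508 in fed isolates. The log2 ratio of Rpn2 was -0.60 (95% interval -0.88 to -0.32), just past 1.5-fold, and it fell short of 1.5-fold without fasted replicate 1 (-0.57), without fed replicate 1 (-0.56) and without fed replicate 3 (-0.52). Rpn1 (probe set 1398766_at) measured 1676, 1708 and 1895 in fasted isolates and 2514, 2070.0 and 2371 in fed isolates. Its groups did not overlap, but with a log2 ratio of -0.40 (95% interval -0.63 to -0.16, unadjusted p = 0.00648 from limma) Rpn1 did not reach 1.5-fold. Ost4 (probe set 1388726_a_at), a very short membrane peptide that steadies the catalytic subunit in yeast, measured 712, 686 and 750.1 in fasted isolates and 993, 899.8 and 1084 in fed isolates. Its log2 ratio of -0.47 (standard error 0.09) and that of its dimmer probe set, -0.57 (standard error 0.14), both fell short of 1.5-fold.

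The catalytic subunits Stt3a and Stt3b, which form the bond between sugar and asparagine, differed in the spread between isolates. Stt3a (probe set 1398599_at) measured 62.5, 97.7 and 141 in fasted isolates and 199.6, 132 and 165 in fed isolates. The groups overlapped, since fasted replicate 3 lay above fed replicate 2. The log2 ratio of Stt3a was -0.78 with a wide 95% interval, -1.55 to -0.01, and an unadjusted p of 0.0487 from limma. The log2 ratio was -0.48 without fasted replicate 1 and -1.06 without fasted replicate 3. The call was lost in 11 of 17 other settings, among them each of the fits without 1 array except that without fasted replicate 3. The dimmer Stt3a probe set did not overlap, with 11.8, 24.2 and 43.8 in fasted isolates and 67.1, 54.6 and 60.7 in fed isolates, and a log2 ratio of -1.38 (standard error 0.47, unadjusted p = 0.0256 from limma). On both probe sets fasted replicate 1 was the lowest array.

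Stt3b (probe set 1389023_at) measured 439, 462 and 447 in fasted isolates and 716, 580.1 and 632 in fed isolates. All fasted isolates lay below the fed ones and within a narrow range, and the log2 ratio was -0.51 (95% interval -0.74 to -0.28, unadjusted p = 0.00163 from limma), short of 1.5-fold. The dimmer Stt3b probe set measured 108, 93.4 and 104 in fasted isolates and 175, 149.6 and 172 in fed isolates, and passed both thresholds with a log2 ratio of -0.70 (standard error 0.12). Mean log2 values of both Stt3b probe sets gave -0.61, also past them. The fall of Stt3a exceeded that of Stt3b by 0.27 on the log2 scale, and an exact permutation test of the ratio within arrays gave p = 0.6 (two-sided, 20 splits, smallest possible p 0.10). Without fasted replicate 1 the difference was 0.02, in the other direction, and over the other pairings of their probe sets it lay between -0.87 and -0.07 (exact permutation p = 0.4 to 0.9). Since this test could not reach 0.05 with 3 arrays a group, whether the catalytic subunits fell unequally was not settled.

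**Figure D2:**
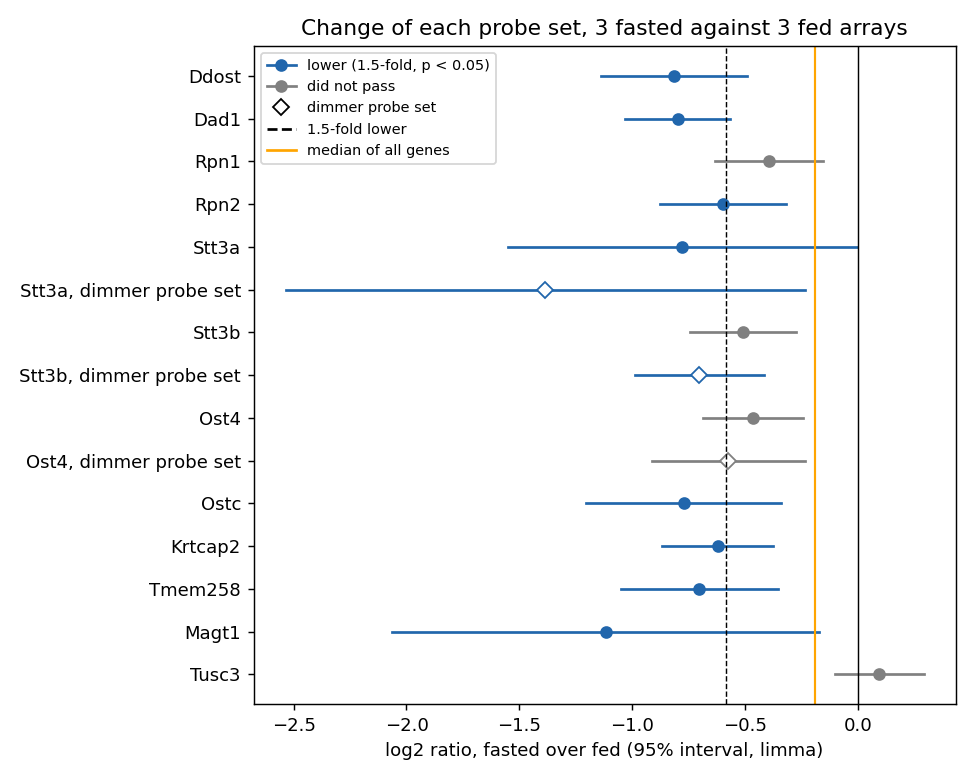
Log2 ratio of fasted over fed (horizontal axis) with its 95% interval from limma for every probe set of the 9 subunits and of 3 further subunits; blue passed 1.5-fold at an unadjusted p under 0.05, grey did not, and open diamonds are dimmer probe sets of a gene. All 12 probe sets of the 9 subunits lie left of the median of all genes, -0.19, and the interval of Stt3a is the widest among the brightest ones of these genes.

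Ostc and Krtcap2 belong to the STT3A form, which they link to the Sec61 channel in mammalian cells. Ostc (probe set 1372704_at), also called DC2, measured 416, 629 and 622 in fasted isolates and 999, 846 and 961 in fed isolates. All fasted values were lower, fasted replicate 1 lay apart from the other fasted isolates, and the log2 ratio was -0.77 (standard error 0.18, adjusted p = 0.209 from limma), or -0.58 and short of 1.5-fold without that array. Krtcap2 (probe set 1371540_at), also called KCP2, measured 350.5, 284 and 319 in fasted isolates and 501, 463 and 498 in fed isolates. Here fasted replicate 1 was the highest of the fasted isolates, and the log2 ratio was -0.62 (standard error 0.10, adjusted p = 0.167 from limma), or -0.54 and short of 1.5-fold without fasted replicate 2.

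The promoters of the subunits were read from RefSeq (rat build GRCr8) for the binding motifs of the ER stress factors ATF6 and XBP1, windows of 250 bases before and 50 after the gene start. A window was held for 8 of the 9 genes, all but Krtcap2. Motifs were searched on both strands, and the full motifs ERSE (CCAAT and CCACG with 9 bases between), ERSE-II (ATTGG and CCACG with 1 base between) and the UPRE core TGACGTG were found in 0 of the 8, and in 0.0657%, 0.0508% and 1.81% of all 33469 promoters. The short core CCACG, which is also the end of both ERSE forms, was present in 5 of the 8 (Ddost, Dad1, Rpn1, Rpn2 and Stt3a) and in 31.6% of all promoters, and ACGTG, which lies within the UPRE core, in 2 (Dad1 and Rpn1) and in 19.3%. The 8 windows had a median GC content of 63%, against 51.7% over all promoters. A match describes letters and not a bound site. The windows of Ddost and Dad1, with the largest falls of the 9 subunits on the brightest probe set (the dimmer Stt3a probe set fell further), and of the catalytic pair are shown, 5′ to 3′ on the strand of the gene, with CCACG or ACGTG of either strand in capitals. Ddost lies at chr5:155805362-155805661 (plus strand), Dad1 at chr15:31667110-31667409 (minus), Stt3a at chr8:44671911-44672210 (minus) and Stt3b at chr8:123872130-123872429 (minus).
Ddost: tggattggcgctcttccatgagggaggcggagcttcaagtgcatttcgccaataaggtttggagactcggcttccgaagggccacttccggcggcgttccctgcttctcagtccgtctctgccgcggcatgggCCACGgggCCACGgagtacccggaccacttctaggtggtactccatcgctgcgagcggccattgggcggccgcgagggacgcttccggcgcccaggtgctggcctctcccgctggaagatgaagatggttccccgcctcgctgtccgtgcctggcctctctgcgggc
Dad1: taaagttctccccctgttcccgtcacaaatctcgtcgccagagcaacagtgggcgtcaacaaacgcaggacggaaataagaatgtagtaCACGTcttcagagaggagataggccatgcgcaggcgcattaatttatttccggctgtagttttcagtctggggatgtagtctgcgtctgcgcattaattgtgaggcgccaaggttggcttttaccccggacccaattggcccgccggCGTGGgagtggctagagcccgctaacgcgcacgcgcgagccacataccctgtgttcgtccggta
Stt3a: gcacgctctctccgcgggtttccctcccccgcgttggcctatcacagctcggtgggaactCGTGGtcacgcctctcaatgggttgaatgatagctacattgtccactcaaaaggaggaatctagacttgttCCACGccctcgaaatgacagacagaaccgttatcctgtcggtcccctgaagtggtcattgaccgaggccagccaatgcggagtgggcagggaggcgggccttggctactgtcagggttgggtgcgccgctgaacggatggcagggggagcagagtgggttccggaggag
Stt3b: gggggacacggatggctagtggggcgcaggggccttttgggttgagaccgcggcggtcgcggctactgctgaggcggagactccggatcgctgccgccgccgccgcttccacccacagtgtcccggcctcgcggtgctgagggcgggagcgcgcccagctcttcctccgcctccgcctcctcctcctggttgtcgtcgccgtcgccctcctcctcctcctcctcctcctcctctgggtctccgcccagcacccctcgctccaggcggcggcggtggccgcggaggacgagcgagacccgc

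The Ddost window held 2 copies of CCACG, starting 117 and 109 bases before the gene start. Dad1 held 1 CCACG, 14 bases before the start, and 1 ACGTG, 161 bases before it. Stt3a held 2 copies of CCACG and Stt3b none of either core, while both genes had a negative log2 ratio (-0.78 and -0.51). Ost4 and Ostc, which also had none, had -0.47 and -0.77, and the 5 subunits with a core ranged from -0.82 to -0.40.

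The subunits varied together among the fed isolates, and less so among the fasted ones. In fed isolates replicate 2 was the lowest of the 3 for all 9 subunits, with a median log2 value 0.11 above the mean of the arrays, against 0.42 and 0.41 in fed replicates 1 and 3. Over all genes the median of fed replicate 2 did not stand apart, with 0.09 against 0.11 and 0.09 in the other fed isolates, and it was the lowest fed array for 39.2% of the genes. The pattern was not particular to the subunits, as fed replicate 2 was also the lowest fed array for 10 of 11 Sec61 and TRAP genes, 13 of 20 dolichol genes and 8 of 13 trimming genes. On the same array the summed markers of other islet cells were the highest of the fed isolates (16332, against 11048 and 9498 in fed replicates 1 and 3). So were those of leukocytes (147, against 67.5 and 50.7) and stroma (404, against 286 and 139). Gcg (7629) and Ppy (4270) gave most of the sum of other islet cells there. Sst was only slightly higher there (4182, against 3973 and 3854 in fed replicates 1 and 3). Among these markers only Hhex (18.5) was not highest there, being the lowest of the fed isolates. Cd74 alone gave 103 of the leukocyte sum, while Ptprc, Cd68 and Tyrobp were not highest there. Among stromal markers Col1a1 (17.6) and Pdgfrb (3.19) were lowest there of the fed isolates. The endothelial sum (222, against 253 in fed replicate 1) was not the highest. Nor were the acinar (94772) and duct (382) sums, against 102157 and 403 in fed replicate 3. The part of these cells in the subunits' values was not tested. In fasted isolates the subunits' medians were -0.35, -0.31 and -0.23, and replicate 1 was the lowest for 6 of the 9. Fasted replicate 1 also correlated less with the other 5 arrays (r = 0.88 to 0.93 across probe sets, log2 values) than these did among themselves (0.93 to 0.96), and its array median was 17.1, against 17.8 and 21.0 in the other fasted isolates and 20.2 to 21.8 in fed ones. Without this array 3 subunits remained lower at both thresholds (Ddost, Dad1 and Krtcap2), against 6.03% of all genes, and all 9 kept a negative ratio. With all 6 arrays 9440 of 14217 genes had a negative ratio.

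**Figure D3:**
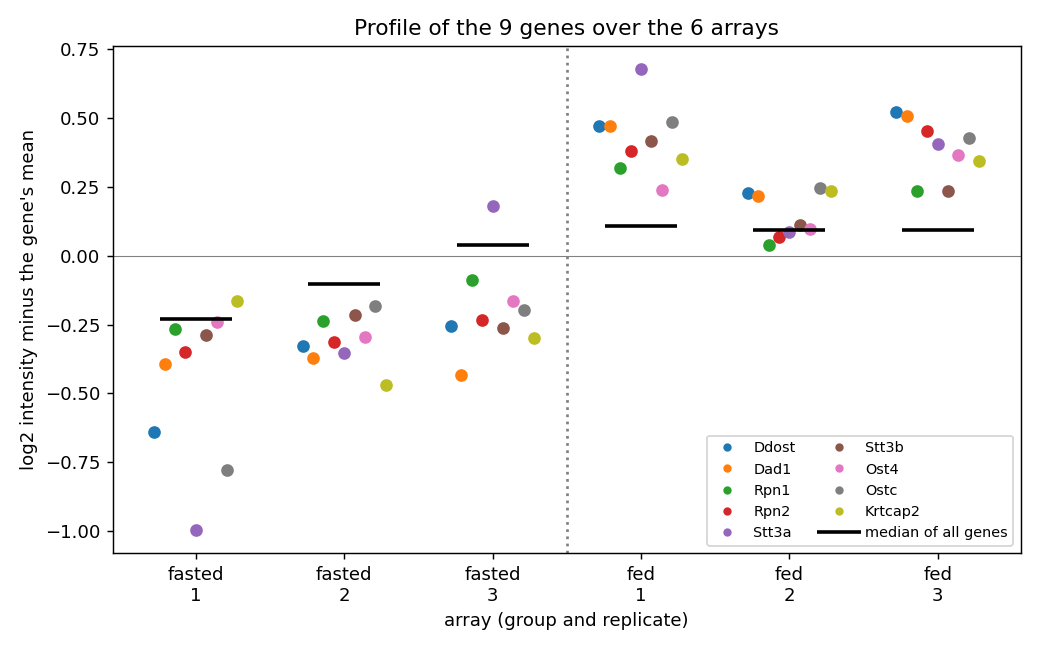
Log2 intensity of each of the 9 subunits minus its mean over the 6 arrays (vertical axis), by array; black bars give the median of all genes. Fed replicate 2 holds the lowest fed value of every subunit, and the only fasted value above 0 is that of Stt3a in replicate 3, at 0.18.

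The size of the fall depended on how the arrays were scaled. On the values as normalized by the authors, fasted replicates 1 and 2 had the lowest array medians, and the median log2 ratio of all genes was -0.19. Quantile normalization brought this median to -0.01, and 3 subunits were then lower (Ddost, Dad1 and Ostc), against 5.12% of all genes. After each array was scaled to its 75th percentile (upper-quartile scaling) the median of all genes was 0.03 and 0 subunits passed, against 4.49% of all genes. Over all genes 1352 were lower and 326 higher on the deposited values, 728 and 573 after quantile normalization, and 638 and 671 after upper-quartile scaling. After upper-quartile scaling every subunit kept a negative log2 ratio, from -0.15 for Rpn1 to -0.57 for Ddost. In that scaling 5 of them kept an unadjusted p under 0.05 from limma (Ddost, Dad1, Rpn2, Ostc and Krtcap2). The share of all genes under 0.05 in that scaling is not given here. Relative to the median of all genes the median of the 9 subunits was -0.43 as deposited and between -0.53 and -0.36 in the other settings.

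**Figure D4:**
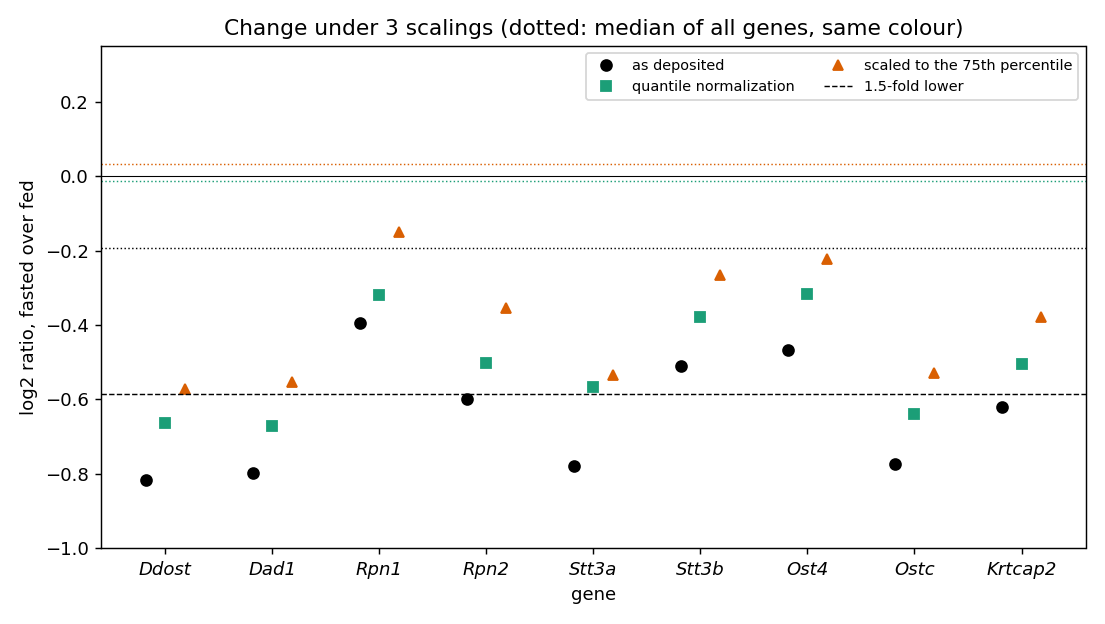
Log2 ratio of fasted over fed (vertical axis) of the 9 subunits on the deposited intensities (black), after quantile normalization (green) and after upper-quartile scaling (orange); dotted lines give the median of all genes in the same colour. All points lie below the dotted line of their own scaling, while no orange point reaches the dashed line of 1.5-fold.

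The remaining subunits on the array were not of 1 kind. Tmem258, a small shared subunit, measured 349, 355 and 408 in fasted isolates and 659, 494 and 670.3 in fed isolates, with no overlap and a log2 ratio of -0.70 (standard error 0.14, adjusted p = 0.189 from limma). Magt1, an oxidoreductase of the STT3B form, measured 87.6, 255 and 201 in fasted isolates and 363, 400.0 and 316 in fed isolates. All fasted values were lower, though fasted replicate 1 lay far below the others, and the log2 ratio was -1.12 (standard error 0.39, adjusted p = 0.290 from limma). Without fasted replicate 1 it was -0.66, and without any 1 of the fed replicates Magt1 missed the p threshold (unadjusted p = 0.0539 to 0.0859 from limma). Tusc3, the paralog that takes the place of Magt1 in other copies of the complex, measured 1027, 917 and 876 in fasted isolates and 877, 880.5 and 879.9 in fed isolates. Tusc3 did not pass (log2 ratio 0.09, 95% interval -0.10 to 0.29), and its groups overlapped. After quantile normalization and upper-quartile scaling Magt1 stayed lower (-0.96 and -0.87), Tmem258 fell short of 1.5-fold (-0.58 and -0.46), and Tusc3 had 0.24 and 0.34 without reaching 1.5-fold.

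The genes that act before and after the transfer were read from lists chosen beside the 9 subunits. Of 20 measured genes that assemble the dolichol-linked sugar chain, 4 were lower and 0 higher, against 9.51% and 2.29% of all genes. The median log2 ratio of the 20 was -0.42, against -0.19 for all genes. The lower ones were the mannosyltransferases Alg3 (1.99-fold lower), Alg12 (1.73-fold) and Alg1 (2.55-fold) and the Alg14 subunit of the transferase that adds N-acetylglucosamine to the growing chain (1.64-fold, with overlapping groups), all of low intensity, with means between 24.98 and 48.9 in fasted isolates and between 50.4 and 84.3 in fed isolates. Dpagt1, which starts the chain, had a log2 ratio of -0.39 and did not reach 1.5-fold, and Alg9, another mannosyltransferase, had 0.45 with every fasted value above the fed ones. Of 13 genes listed under trimming of the transferred chain and the calnexin cycle, 9 passed as lower and 0 as higher. The list was wider than that name. It also held the mannose-binding lectin Lman1, which is among the 9 (log2 ratio -0.75), and Ngly1, which did not pass. Over all genes the shares were 9.51% and 2.29%. The median log2 ratio of the 13 was -0.68. Calr, a lectin chaperone, had a log2 ratio of -0.62 (standard error 0.08), Man1b1, an ER mannosidase, -0.68 (0.14), Prkcsh, the regulatory subunit of glucosidase II, -0.63 (0.14), and Pdia3, the disulfide isomerase that works with calreticulin, -0.76 (0.21). The membrane lectin Canx had -0.25 (unadjusted p = 0.0514 from limma) and did not pass.

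Of 11 genes of the Sec61 channel, its partners Sec62, Sec63 and Tram1, and the TRAP complex, 4 passed as lower and 0 as higher. The shares over all genes were 9.51% and 2.29%. The median log2 ratio was -0.49, and all 11 had every fasted array below every fed array, as had 21.2% of all genes. The lower ones were Sec61a1, the pore, with 487 in fasted and 942 in fed isolates (log2 ratio -0.97), Sec61g with -0.61, and the TRAP subunits Ssr2 with -0.77 and Ssr4 with -0.74. After upper-quartile scaling 2 of 20 dolichol genes, 2 of 13 trimming genes and 1 of 11 Sec61 and TRAP genes were lower, against 4.49% of all genes, and 1 dolichol gene was higher, against 4.72%. Without fed replicate 1 the dolichol, trimming and Sec61 lists had 2, 4 and 3 lower genes, against 4.95% of all genes. Without fed replicate 2 the trimming list had 5 lower genes, against 7.81%, and without fed replicate 3 it had 5 and the dolichol list 2, against 5.87%. Of the genes named as lower in these lists, Alg3, Alg12, Sec61a1, Ssr2 and Ssr4 stayed past both thresholds without each array in turn, and each of the others missed one of them without at least 1 array. No list was set against another.

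**Figure D5:**
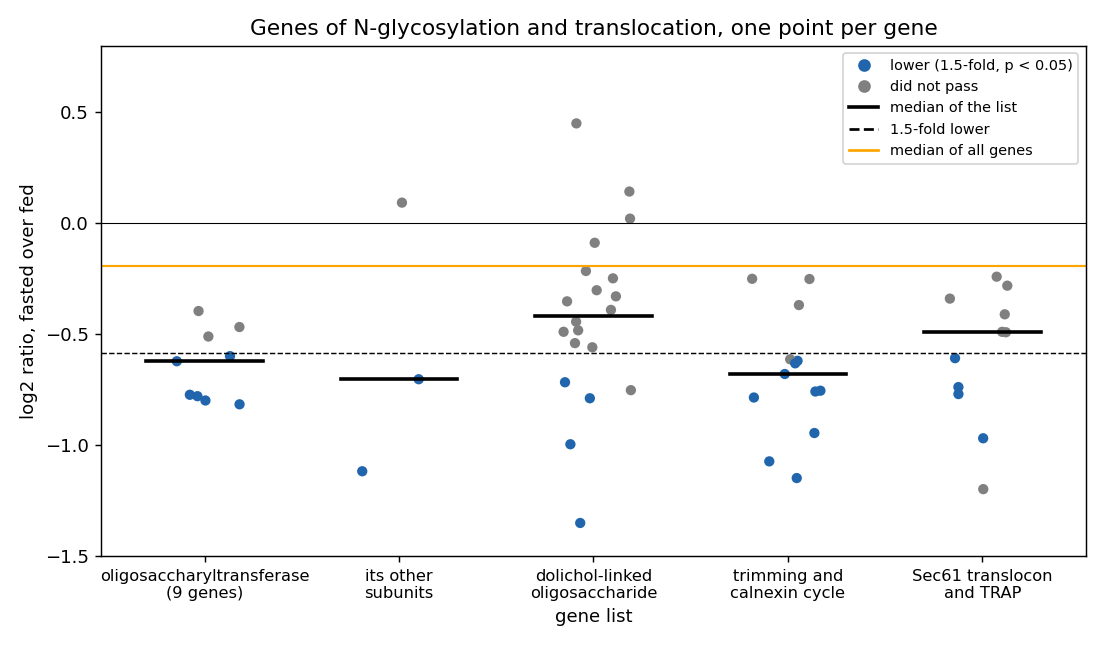
Log2 ratio of fasted over fed (vertical axis) of each gene of 5 lists, with 1 point per gene; blue points passed 1.5-fold at an unadjusted p under 0.05, black bars are list medians, the dashed line is 1.5-fold lower and the orange line the median of all genes. The bars stand at -0.62, -0.70, -0.42, -0.68 and -0.49.

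Because bulk isolates were measured, fewer cells of a type and less RNA per cell cannot be told apart. Beta cell markers were bright on every array, with Ins2 between 5783 and 6053 in fasted and between 5686 and 5872 in fed isolates, and none of the 8 measured markers passed. Ero1b, an ER oxidase of beta cells, had a log2 ratio of -0.52 (standard error 0.09, adjusted p = 0.176 from limma) with no overlap, short of 1.5-fold. The acinar cell, which is rich in ER and N-glycosylation enzymes, left strong marker signal in all isolates. For its purified rat beta cells the study reports mostly insulin-positive cells and little exocrine contamination. By quantitative PCR it found far less Ctrb1 in them than in whole pancreas, so bright acinar markers do not give the share of acinar cells. The summed intensity of 22 acinar markers was 82293 to 99763 in fasted and 92401 to 102157 in fed isolates, lowest in fasted replicate 1, and 1 of the 22 was lower (Bhlha15, a transcription factor of acinar cells, with 33.8, 31.2 and 44.0 in fasted and 74.0, 46.1 and 81.0 in fed isolates). The summed signal of the 7 markers of other islet cells was 12292 to 12779 in fasted and 9498 to 16332 in fed isolates, and that of the 4 duct markers was 430.0 to 536 in fasted and 353 to 403 in fed isolates, with 1 of the 4 higher (Krt19). None of the 6 leukocyte, 5 endothelial and 6 stromal markers passed. Array maxima lay between 7000.0 and 7629, and 3 beta cell, 16 acinar and 3 other islet markers reached at least 50% of the highest, a limit chosen after their values were seen. These bright markers made up 73.7%, 85.3% and 99.1% of the summed signal of their lists. Whether signals this bright were compressed was not tested, so similar sums do not show similar content. The 5 beta cell markers below that limit summed to 5907 to 6266 in fasted and 6590 to 7676 in fed isolates, and the 6 acinar ones to 11965 to 14829 in fasted and 13244 to 16044 in fed isolates. The part of these cells in the subunits' values was not tested.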

How the data were processed

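RNA of FACS-purified rat beta cells was hybridized on Affymetrix rat arrays. The deposited values are linear intensities, which the authors modelled in dChip once arrays had been normalized to the one of median brightness, with mismatch probes for background. For dChip, a version was not given in the sources used here. After that step 2 fasted arrays still have lower medians, which can lower all their probe sets together. Of 31042 probe sets besides 57 controls, the platform annotation gave 20826 a single gene symbol, 436 several and 9780 none, and only the first kind was named. A floor was set at 3.27, the 10th percentile, and limma 3.58.1 (R 4.3.3) was run on log2 intensities by lmFit and eBayes with a trend, for both groups without a block. Tests were two-sided and p-values were adjusted by Benjamini-Hochberg over all 31042. The floor understates changes of dim probe sets. A call needed 1.5-fold and unadjusted p under 0.05. Means and SDs are of linear intensities, and the number of arrays limits the precision.

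The subunits and gene lists were chosen with earlier results of these data known. All subunits are named, and of each list up to 4 of the genes that passed, those with the largest moderated t. Dpagt1, Alg9, Canx, Lman1, Ngly1 and the cell type markers Ero1b, Bhlha15, Krt19, Gcg, Ppy, Sst and Hhex were named after their values were seen. Sec62, Sec63 and Tram1 were named to describe their list. Some listed pathway genes were not analysed here.

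The alternatives were a comparison of linear means with unequal variances, dim probe sets left out, a floor of 7.53 (25th percentile), a pseudocount, quantile normalization, upper-quartile scaling, no trend, robust variance, array weights, a replicate block, each array left out, and averaging a gene over its probe sets. Simulated data were used to test the fit, and the outcome is not given here. Plots were made in matplotlib 3.10.9 in Python 3.11.15. Promoter sequences are from RefSeq.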

Additional observations from a re-analysis of the deposited data

How the results depend on the processing

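Each of the 9 subunits kept a negative log2 ratio in all 17 other settings. On the deposited values 9440 of all 14217 genes had a negative log2 ratio. Past both thresholds were Ddost and Dad1 in 16 of 17 settings, Ostc in 15, Krtcap2 in 14, Rpn2 in 12, Stt3a in 6, Stt3b in 1, and Rpn1 and Ost4 in 0. The number of lower subunits was 3 after quantile normalization and 0 after upper-quartile scaling, and leaving out each array gave 3 to 6, the fewest without fasted replicate 1. No subunit was higher in any setting. The median of the subunits was -0.38 after upper-quartile scaling and between -0.72 and -0.57 without each array. The difference between Stt3a and Stt3b ranged from -0.56 to 0.02 without each array and turned in direction (0.018) without fasted replicate 1.

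Of the other subunits 1 was lower under quantile normalization, upper-quartile scaling and array weights, and 1 to 2 without each array. Of the dolichol genes 2 were lower and 1 higher after either scaling, and 2 to 6 were lower without each array. Of the trimming genes 5 were lower with linear means, 5 after quantile normalization and 2 after upper-quartile scaling, and 4 to 9 without each array. Of the Sec61 and TRAP genes 1 was lower after upper-quartile scaling, and 3 to 5 without each array. Over all genes, against 1352 lower and 326 higher, there were 854 and 99 with linear means, 728 and 573 after quantile normalization, 638 and 671 after upper-quartile scaling and 3036 and 1023 with array weights, whose estimation stopped before convergence. Dim probe sets left out gave 205 higher and the floor at the 25th percentile 199. Leaving out each array gave 704 to 2663 lower and 192 to 703 higher genes, the fewest without fed replicate 1 and the most without fasted replicate 3. There were 857 lower genes without fasted replicate 1, and 835 lower and 210.0 higher without fed replicate 3. The causes were not tested.

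With the replicate number as a block the count of lower subunits was 5, since Stt3a missed the threshold (unadjusted p = 0.0694 from limma). Same-numbered fasted and fed isolates had deviations with r = 0.00, 0.01 and -0.05 across probe sets. No isolate correlated best with its own number. With 3 arrays a group these values cannot decide on pairing, and whether same-numbered isolates shared a day of preparation or hybridization was not tested. Replicates come from separate pools, and no scan batch was tested. With 3 arrays a group the smallest exact permutation p is 0.10.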

Other observations

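Magt1 and Tusc3, which stand in for each other in the STT3B form, were set side by side after their values had been seen. The log2 difference of Magt1 minus Tusc3 within an array, centred on the mean of the 6 arrays, was -1.65, 0.06 and -0.22 in fasted isolates and 0.63, 0.76 and 0.43 in fed isolates. All fasted isolates lay below the fed ones, with a difference of -1.21 between the means, and fasted replicate 1 lay far below the others. Without that array the difference was -0.69. The difference was not tested.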
